A study of Homo sapiens with 12 samples.

Results

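The chaperone genes described here are 46 listed symbols that encode the folding machinery of the cytosol and mitochondria, taken from 16451 gene symbols with at least 1 coding-sequence (CDS) read out of 38716 in the deposited tables. Their mRNA and their ribosome-protected fragments (RPF) were measured in cells of IMR90, an established human line of normal lung fibroblasts, that either proliferated (Pro) or were senescent (Sen). Senescent cells had reached replicative exhaustion by continuous passaging, and no drug, transgene or knockdown is named in the labels of either state. The names of the proliferating RNA-seq tables hold letters close to those of the solvent DMSO, and it is not known whether those cells were given any. From 3 lysates per state, a Ribo-seq library, which counts fragments of 28 to 32 nt shielded by ribosomes, and an RNA-seq library of poly(A)-enriched RNA were made from the same lysate. The cultures came from 2 isolates of the line, and the labels do not say which isolate gave which lysate, so isolate and state cannot be told apart. The study asked which part of the change in senescence lies in mRNA level and which in translation, and the comparison below puts that question to the chaperones.

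HSP70 proteins bind unfolded stretches of other proteins in a cycle driven by ATP. J-proteins bring them their clients, and BAG proteins release the bound nucleotide. HSP90 with its co-chaperones matures kinases and steroid hormone receptors, whereas small heat shock proteins hold unfolded proteins without using ATP. Chaperonins are double rings that enclose a protein while it folds: TRiC works in the cytosol on actin and tubulin, which prefoldin hands over to it, and HSP60 with its lid HSP10 works in the mitochondrial matrix. Upon heat, the transcription factor HSF1 forms trimers, binds inverted repeats of the letters GAA and raises the inducible members of these families. The members were therefore also sorted into 10 heat-inducible, 13 constitutive cytosolic, 10 chaperonin and 13 other genes.

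Reads in UTRs and CDS numbered 7895187 to 14133300 per RNA-seq library. The Ribo-seq libraries Pro 1 and Sen 2 held 54323 and 54587 CDS reads and are called shallow, whereas the other 4 held from 583669 to 1718431. The median member had 10 footprints in Pro 1 and 9.5 in Sen 2, against 97 to 288.5 in the others. The CDS took from 15.0% to 88.8% of assigned Ribo-seq reads, with the lowest shares in Sen 2 and Pro 1. Levels are in CPM, the usual edgeR unit of counts scaled to library size, here with TMM factors, and ± marks the SD over 3 replicates. All 8 fibroblast markers were expressed, with COL1A1 at 14209 CPM in Pro and 13269 CPM in Sen mRNA. Of the epithelial markers, EPCAM, CDH1 and KRT5 averaged under 1 CPM of mRNA, SFTPC had no read and KRT18 (272 and 230.5 CPM) and KRT8 were expressed, all 4 endothelial markers failed the filter on low counts, and of the leukocyte markers only CD68 passed it.

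Chaperone mRNAs were mostly lower in senescent cells. Of the 46 mRNAs, 26 fell, 11 rose and 9 did not pass the test, with a median log2 fold change (Sen over Pro) of -0.21 against -0.01 over all 12787 mRNAs tested. Over all genes tested, 37% were called lower, 36.6% higher and 73.6% called in all, at an adjusted p under 0.15 by the quasi-likelihood test of edgeR. In 36 members the 3 Pro and 3 Sen values did not overlap, as in 67.8% of all mRNAs tested. The 9 mRNAs that did not pass had fold changes between -0.13 and 0.16.

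Footprints of 43 members were tested, because BAG1, CRYAB and HSPB7 had too few reads. Of these, 21 fell, 9 rose and 13 did not pass, with a median log2 fold change of -0.25 against 0.00 over all 7521 genes tested. In this layer 26.6% of all genes tested were called lower, 27.6% higher and 54.2% called in all. The 2 states did not overlap for 16 members, and they did not overlap for 32.6% of all genes. Without the shallow libraries, which leaves 2 lysates a state, 21 members fell and 10 rose. DESeq2 on the same footprints called 10 members lower and 3 higher, against 15.5% of all genes.

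Translational efficiency (TE), the log2 ratio of scaled RPF to scaled mRNA in a lysate, changed in few members. It rose for HSPA1A, HSPA1B, HSPA8, HSPB8, CDC37 and PFDN5, and fell for PFDN1 and HSPE1, with the other 35 not passing. Over all 7473 genes tested for TE, 6.8% were called higher, 3.57% lower and 10.4% called in all. TE did not overlap between the states for 10 members and for 16.3% of all genes tested. DESeq2 called TE changed for none of the members and for 0.375% of all genes, so that each TE call below rests on edgeR. Sorted by the calls in the 3 layers, 22 members changed by abundance (mRNA and RPF called in the same direction), 6 by translation (RPF and TE called in the same direction) and 2 by buffering (mRNA and TE called in opposite directions, with RPF not called). This sorting was not done over all genes, so it cannot show whether the split is particular to the members. Every label of translation or buffering needs a TE call, and the near-identical HSPA1A and HSPA1B received 1 label each of translation and buffering.

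**Figure D1:**
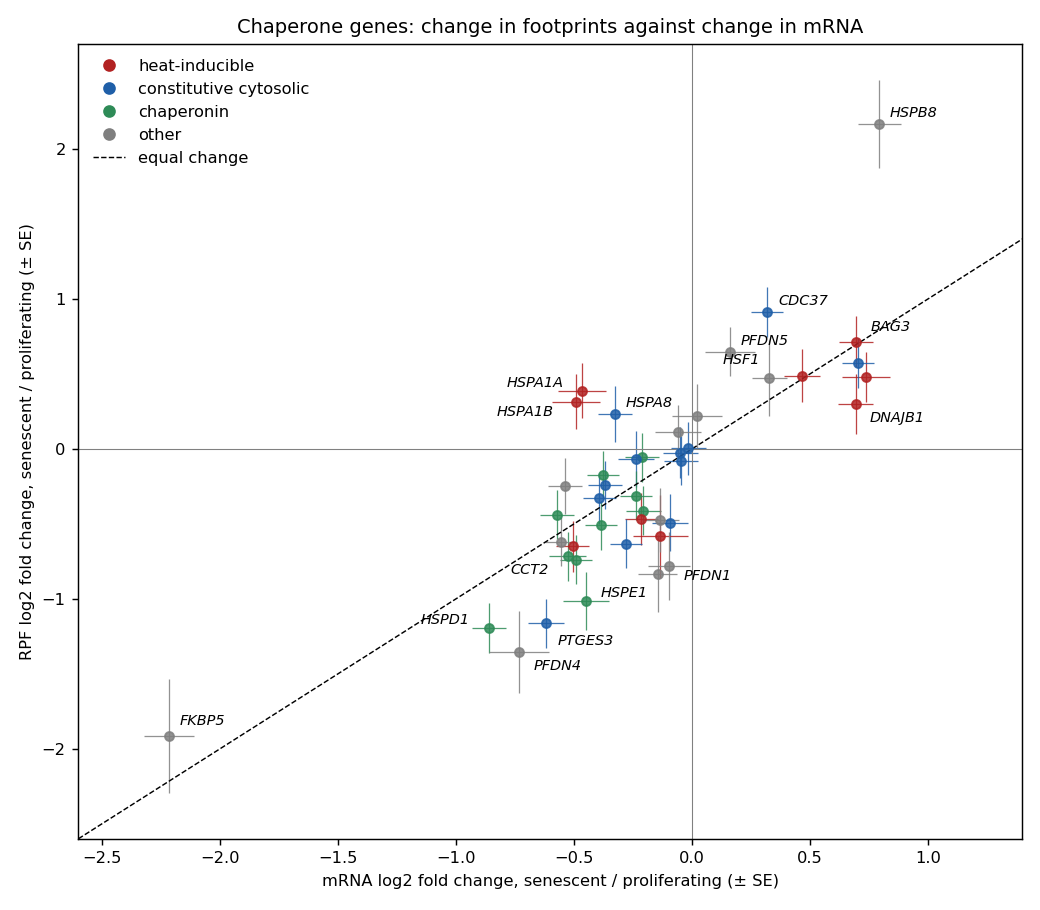
Log2 fold change of RPF (vertical axis) against that of mRNA (horizontal axis), senescent over proliferating, for the 43 chaperone genes tested in both layers, with bars of 1 SE and colours by class. The 10 chaperonin genes lie left of 0, HSPB8 is the highest point at 0.79 and 2.17, and HSPA1A, HSPA1B and HSPA8 lie to the left of 0 on mRNA and above 0 on RPF.

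The 3 classes differed in how uniform they were. Among the 10 heat-inducible genes, mRNA rose for DNAJB1, DNAJB4, BAG3, HSPB1 and CRYAB and fell for HSPA1A, HSPA1B, HSPH1 and HSP90AA1, while CHORDC1 did not pass. HSPA1A and HSPA1B have nearly the same coding sequence, yet they enter the counts and medians of this class as 2 genes. With their reads summed into 1 gene, 25 members were called lower and 11 higher in mRNA, and 5 higher in TE. Among the 13 constitutive cytosolic genes, 6 mRNAs fell, 3 rose (DNAJB6, BAG1, CDC37) and 4 did not pass. Each of the 10 chaperonin mRNAs fell, with log2 fold changes from -0.86 to -0.21. Beside these counts, 37% of all mRNAs tested were called lower and 36.6% higher. Median mRNA fold changes were 0.17 for heat-inducible, -0.09 for constitutive cytosolic and -0.42 for chaperonin genes. In footprints, 4 of 9 heat-inducible genes rose and 3 fell, 2 of 12 constitutive cytosolic genes rose and 4 fell, and 8 of 10 chaperonin genes fell with none higher. Of all genes tested for RPF, 26.6% were called lower and 27.6% higher. By DESeq2, 608 of all 7521 genes tested for RPF were called higher and 556 lower. In the classes DESeq2 called 0 heat-inducible genes higher and 1 lower, 1 constitutive cytosolic gene higher and 2 lower, and 4 chaperonin genes lower. The corresponding median RPF fold changes were 0.31, -0.07 and -0.47 by edgeR. The difference between the classes was not tested.

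Promoters were searched for the element that HSF1 binds, because it is what the heat-inducible class is known to share. A perfect run of 3 alternating GAA and TTC units (GAANNTTCNNGAA or TTCNNGAANNTTC, either strand) was found in 4 of the 41 members with a RefSeq promoter sequence (250 bases before to 50 bases after the gene start, GRCh38.p14), and in 133 of all 27305 promoters of that length, or 0.487%. The 4 genes were HSPA8, DNAJA1, DNAJB6 and CHORDC1. A run of 2 units, which every longer run contains, was found in 14 of 41 members and in 13.7% of all promoters. By class, 1 of 9 heat-inducible, 3 of 12 constitutive cytosolic and 0 of 9 chaperonin promoters held the run of 3 units. The run of 2 units was in 4, 4 and 2 of them. Only perfect units inside this window were searched for, so a promoter without a match may still hold an imperfect or more distant element. The class counts therefore do not show which classes lack the element. These matches describe letters, not bound sites. They are shown to let the spacing be seen, with the units in capitals and on the strand of the gene. HSPA8 holds 2 such runs and CHORDC1 holds 3 that overlap each other, and 1 of each is printed.
HSPA8 (chr11:123062173-123062197, minus strand, centre at -49 from the gene start): ggccccTTCtgGAAggTTCtaagat
DNAJA1 (chr9:33025270-33025294, plus strand, centre at 9): cgggcgGAActTTCcaGAAcgctcg
DNAJB6 (chr7:157336867-157336891, plus strand, centre at -125): agccgaGAAccTTCgcGAAggtggg
CHORDC1 (chr11:90223086-90223110, minus strand, centre at -49): ggaaaaTTCgcGAAggTTCctgaaa
The mRNAs of these 4 genes did not share a direction. HSPA8 mRNA fell, DNAJB6 mRNA rose, and DNAJA1 and CHORDC1 did not pass, with log2 fold changes of -0.05 and -0.13.

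HSF1 itself, the regulator of the heat shock response, had mRNA levels of 99.6, 100.4 and 86.9 CPM in Pro 1, 2 and 3 and 123, 115 and 123 CPM in Sen 1, 2 and 3. All Sen values lay above the Pro values, with a log2 fold change of 0.33 (SE 0.08, adjusted p = 0.000635 by edgeR). Its footprints were few, at 33.5, 41.7 and 38.7 CPM in Pro 1, 2 and 3 and 48.2, 34.2 and 71.9 CPM in Sen 1, 2 and 3, and the groups overlapped. The log2 fold change of 0.47 (SE 0.25, adjusted p = 0.128 by edgeR) for RPF was called only at the 15% rate used here and was lost under 8 of 14 alternatives, among them DESeq2 and leaving out any Pro library or Sen 3 (adjusted p of up to 0.696), and TE did not pass (0.10, SE 0.26). Of its Ribo-seq reads, 15 of 113 in Pro and 10 of 125 in Sen fell in the 5′ UTR.

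All 5 HSP70 and HSP110 mRNAs fell, where 37% of all mRNAs tested were called lower. Of their footprints 1 rose, 2 fell and 2 did not pass, where 27.6% of all genes tested were called higher and 26.6% lower. Summed over the 5 genes, mRNA went from 1999.8 ± 60.5 CPM in Pro to 1581 ± 59.1 CPM in Sen, and RPF were at 3714 ± 433 and 4076 ± 1096 CPM. HSPA8, the constitutive cytosolic HSP70, made up most of both sums. Its mRNA read 1653, 1543 and 1523 CPM in Pro 1, 2 and 3 and 1318, 1202 and 1242 CPM in Sen 1, 2 and 3. No Sen library reached a Pro value, and the log2 fold change of -0.33 (SE 0.07, adjusted p = 0.000458 by edgeR) was called. Its footprints did not fall, at 2498, 3121 and 3144 CPM in Pro 1, 2 and 3 and 3308, 2359 and 4524 CPM in Sen 1, 2 and 3, where shallow Sen 2 was the lowest and Sen 3 the highest of all 6. For RPF the log2 fold change was 0.23 (95% interval -0.14 to 0.60), which did not pass, whereas without both shallow libraries it was 0.32 and passed (adjusted p = 0.0388 by edgeR). TE of HSPA8 was 0.60, 1.02 and 1.05 for lysates Pro 1, 2 and 3, against 1.33, 0.98 and 1.87 for Sen 1, 2 and 3, and the fit gave a log2 fold change of 0.56 (SE 0.19, adjusted p = 0.0787 by edgeR). Sen 2 lay within the Pro values. Without any of 5 single lysates (each of the 6 except Sen 2) the TE call was lost, with adjusted p-values of up to 0.704. Of the 28-base windows of its CDS, 57.9% also occur in another annotated gene, most of all in the pseudogene HSPA8P1.

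HSPA1A and HSPA1B, the strongly heat-inducible HSP70 genes, lie side by side on the plus strand of chromosome 6 (chr6:31783320-31785723 and chr6:31795515-31798031 in the GRCh37 annotation). Their coding sequences of 1923 bases differ at 4 bases, counted from 1 at the start codon: G1710T, G1860C, C1905T and A1920G, with the HSPA1A base first. Of the windows of 28 bases in HSPA1A, 96.0% are also in HSPA1B, so that a footprint of the shortest isolated length rarely tells them apart. The stretch around position 1860 shows what a read must cover to be assigned, with the differing base in capitals.
HSPA1A, CDS bases 1847 to 1873: gtcccgggcctggGggcttcggggctc
HSPA1B, CDS bases 1847 to 1873: gtcccgggcctggCggcttcggggctc
The values of each gene therefore depend on how shared reads were divided. Their sum does not depend on the division within the pair. Of the HSPA1B windows, 97.5% occur in some other gene and 96.0% in HSPA1A, so only a small part is shared with further genes alone. Reads shared with further genes may still enter the sum. How many windows common to the pair also occur in further genes was not counted.

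HSPA1A mRNA was 44.3, 48.7 and 52.7 CPM in Pro 1, 2 and 3 and 36.2, 29.3 and 40.9 CPM in Sen 1, 2 and 3, and HSPA1B mRNA was 43.3, 47.2 and 53 CPM in Pro 1, 2 and 3 and 33.9, 29.2 and 39.6 CPM in Sen 1, 2 and 3. For both genes the lowest Pro library stood above the highest Sen library. The mRNA of HSPA1A had a log2 fold change of -0.47 (SE 0.10, adjusted p = 0.000455 by edgeR). In footprints, HSPA1A read 101, 93.5 and 108 CPM in Pro 1, 2 and 3 and 124, 103 and 157 CPM in Sen 1, 2 and 3, and HSPA1B read 101, 101 and 102 CPM in Pro 1, 2 and 3 and 113, 119.7 and 151 CPM in Sen 1, 2 and 3. The states overlapped for HSPA1A and not for HSPA1B. The shallow libraries hold 6 or 7 of these reads per gene. For HSPA1A RPF the log2 fold change of 0.39 (SE 0.18, adjusted p = 0.0767 by edgeR) was called, and for HSPA1B the log2 fold change of 0.31 (95% interval -0.05 to 0.68, adjusted p = 0.163 by edgeR) was not. The HSPA1A call was lost under 7 of 14 alternatives, among them DESeq2, library totals and leaving out Pro 2, Pro 3 or Sen 3, with adjusted p-values of up to 0.606. Summed, the 2 genes had 96.4 ± 9.11 CPM of mRNA in Pro and 69.7 ± 11.03 in Sen, and 202 ± 8.10 CPM of RPF in Pro and 256 ± 46.03 in Sen. TE of HSPA1A was 1.30, 0.95 and 1.04 for lysates Pro 1, 2 and 3, against 1.78, 1.92 and 1.95 for Sen 1, 2 and 3. All 3 Sen lysates lay above all 3 Pro lysates, also for HSPA1B. The TE change was 0.88 for HSPA1A (SE 0.20, adjusted p = 0.00345 by edgeR), 0.87 for HSPA1B and 0.88 for the summed genes (adjusted p = 0.000367 by edgeR). The call of HSPA1A held under every alternative that kept the gene except DESeq2, and that of HSPA1B was also lost without Pro 3.

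HSPA4 and HSPH1, members of the HSP110 group that exchange the nucleotide of HSP70, fell in both layers. HSPA4 mRNA was 213, 207 and 208 CPM in Pro 1, 2 and 3 and 167, 175 and 175 CPM in Sen 1, 2 and 3, with a log2 fold change of -0.28 (SE 0.07, adjusted p = 0.000943 by edgeR). HSPA4 footprints were 285, 377 and 433 CPM in Pro 1, 2 and 3 and 254, 308 and 246 CPM in Sen 1, 2 and 3, where Pro 1 fell below Sen 2, both of them shallow. The RPF change was -0.63 (SE 0.16), and its call was lost without Pro 3 (adjusted p = 0.166 by edgeR). HSPH1 mRNA was 117, 119.7 and 127 CPM in Pro 1, 2 and 3 and 85.7, 87 and 83.7 CPM in Sen 1, 2 and 3, and HSPH1 footprints were 235, 210.0 and 235 CPM in Pro 1, 2 and 3 and 131, 171 and 159 CPM in Sen 1, 2 and 3, without overlap in either layer. Its log2 fold changes were -0.51 (SE 0.07) for mRNA and -0.65 (SE 0.17) for RPF, and neither gene passed for TE.

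**Figure D2:**
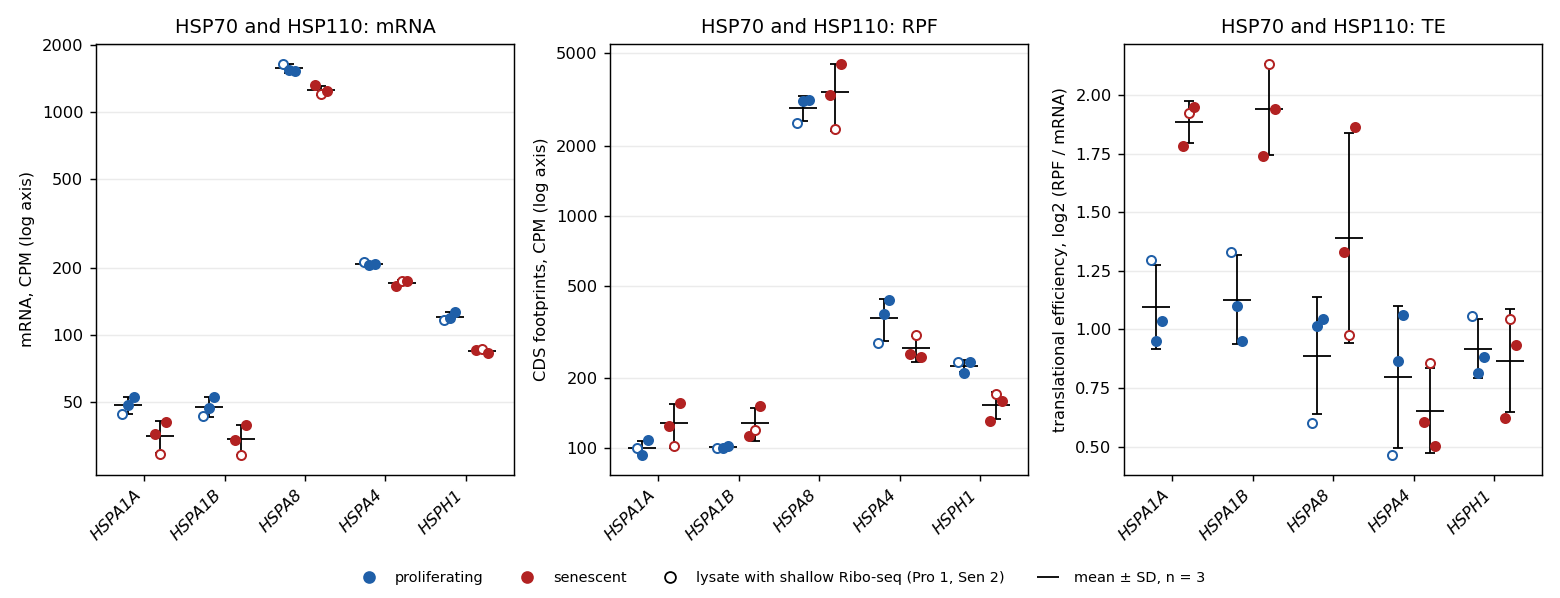
Levels of mRNA and CDS footprints in CPM (log axes) and TE (log2 ratio of RPF to mRNA) for the 5 HSP70 and HSP110 genes in each lysate, with open points for Pro 1 and Sen 2 and bars of mean ± SD, n = 3. All 5 genes have lower mRNA in Sen, and in TE the Sen points of HSPA1A and HSPA1B sit above their Pro points.

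J-proteins and BAG proteins, the partners of HSP70, were the group with the most mRNAs that rose by number. By share, the small heat shock proteins stood higher, with 4 of 5. Of 8 mRNAs, DNAJB1, DNAJB4, DNAJB6, BAG1 and BAG3 rose and none fell, with DNAJA1, DNAJA2 and BAG2 not passing. Among all mRNAs tested, 36.6% were called higher and 37% lower. Their summed mRNA went from 861 ± 18.1 CPM to 1144 ± 19.8 CPM. DNAJB4 mRNA was 65.7, 64.1 and 90.8 CPM in Pro 1, 2 and 3 and 116, 135 and 117 CPM in Sen 1, 2 and 3, with a log2 fold change of 0.74 (SE 0.10, adjusted p = 1.76e-06 by edgeR). DNAJB4 footprints were 117, 149.6 and 159 CPM in Pro 1, 2 and 3 and 232, 188 and 189 CPM in Sen 1, 2 and 3, and the RPF change of 0.48 (SE 0.17) was called. DNAJB1, the J-protein partner of inducible HSP70, had mRNA of 106 ± 7.85 CPM in Pro and 172 ± 6.80 CPM in Sen, a log2 fold change of 0.69 (SE 0.07). DNAJB6, known to keep aggregation-prone proteins soluble, rose by 0.70 (SE 0.07) in mRNA and by 0.57 (SE 0.17) in RPF. The 95% interval of the DNAJB1 footprint change was -0.10 to 0.70 around 0.30, and it did not pass. The RPF calls of DNAJB4 and DNAJB6 were each lost under 4 alternatives, among them DESeq2 and leaving out Sen 1, with Pro 2 needed for DNAJB4 and Pro 3 for DNAJB6, at adjusted p-values of up to 0.408 and 0.358.

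BAG3 works with small heat shock proteins to send damaged proteins to autophagy. Its mRNA was 105, 108 and 110.0 CPM in Pro 1, 2 and 3 and 178, 161 and 183 CPM in Sen 1, 2 and 3, and its footprints were 101, 134 and 149 CPM in Pro 1, 2 and 3 and 249, 154 and 219.6 CPM in Sen 1, 2 and 3. Every Sen value exceeded every Pro value in both layers, with log2 fold changes of 0.69 (SE 0.07) and 0.72 (SE 0.17). No CDS window of BAG3 is shared with another gene. BAG2, which slows the ubiquitin ligase that acts with HSP70, had mRNA of 85.6, 83.5 and 94 CPM in Pro 1, 2 and 3 and 78.1, 88.5 and 79.5 CPM in Sen 1, 2 and 3, where the states overlapped. BAG2 footprints were 117, 105 and 124 CPM in Pro 1, 2 and 3 and 78.1, 68.4 and 94.6 CPM in Sen 1, 2 and 3, with a log2 fold change of -0.49 (SE 0.19, adjusted p = 0.0307 by edgeR), which was lost with DESeq2 and without Pro 3 or Sen 1 (adjusted p of up to 0.505). BAG1 rose in mRNA from 34.5 ± 5.10 to 43.9 ± 2.17 CPM, and had 0 to 18 footprints in a library.

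Of the 5 small heat shock protein mRNAs, HSPB1, HSPB7, HSPB8 and CRYAB rose and HSPB6 did not pass, where 36.6% of all mRNAs tested were called higher. HSPB8, the partner of BAG3, had the largest footprint increase of all 43 members tested. Its mRNA was 27.7, 25.5 and 27.8 CPM in Pro 1, 2 and 3 and 50.4, 48.3 and 41.6 CPM in Sen 1, 2 and 3, a log2 fold change of 0.79 (SE 0.09, adjusted p = 1.12e-07 by edgeR). Its footprints were 16.8, 12.9 and 15.6 CPM in Pro 1, 2 and 3 and 73.6, 51.3 and 56.8 CPM in Sen 1, 2 and 3, which are CDS counts of 1, 9 and 27 for Pro 1, 2 and 3, against 113, 3 and 30 for Sen 1, 2 and 3. The RPF change of 2.17 (SE 0.29, adjusted p = 3.92e-09 by edgeR) exceeded that of its mRNA, and TE was -0.14, -0.90 and -0.81 for lysates Pro 1, 2 and 3, against 0.55, 0.31 and 0.47 for Sen 1, 2 and 3. TE had a log2 fold change of 1.41 (SE 0.32, adjusted p = 0.00345 by edgeR), which was lost without Sen 1 (adjusted p = 0.159 by edgeR). The RPF call of HSPB8 held under every alternative that kept the gene, with fold changes between 1.90 and 2.32. In Pro, 10 of its 49 Ribo-seq reads fell in the 5′ UTR (0 of 1, 3 of 13 and 7 of 35 in Pro 1, 2 and 3). In Sen, 3 of 149 did (2 of 115, 1 of 4 and 0 of 30 in Sen 1, 2 and 3). Over all genes the 5′ UTR share ran from 2.78% to 10.1% of reads in the Pro libraries and from 4.89% to 44.7% in the Sen libraries. For HSPB8 the share was lower in Sen only when reads were pooled, and Sen 1 gave 115 of the 149 Sen reads. By library the states overlapped, with the highest share in Sen 2 (1 of 4), and no test was made of it.

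CRYAB, the inducible small heat shock protein of lens and muscle, had the largest mRNA increase of the 46 genes at a low level. It read 3.54, 3.08 and 3.54 CPM in Pro 1, 2 and 3 and 6.27, 8.86 and 6.85 CPM in Sen 1, 2 and 3, without overlap and with a log2 fold change of 1.14 (SE 0.18, adjusted p = 7.44e-06 by edgeR). It had 0, 2 and 1 footprints in Pro 1, 2 and 3, against 9, 1 and 2 for Sen 1, 2 and 3, too few for a test. Its gene overlaps HSPB2 on the other strand, and the strand rule of the counts is not given in the sources used here. HSPB1, the most abundant small heat shock protein here, went from 570.5 ± 25.0 to 788 ± 68.0 CPM in mRNA (0.47, SE 0.08) and from 924 ± 46.9 to 1194 ± 413 CPM in RPF (0.49, SE 0.18). The RPF call of HSPB1 was lost with DESeq2 and without Pro 2, Pro 3 or Sen 1, with adjusted p-values of up to 0.554. HSPB7 was at 1.82 ± 0.519 and 2.89 ± 0.566 CPM of mRNA. HSPB6, abundant in muscle, read 157, 175 and 122 CPM in Pro 1, 2 and 3 and 147, 136 and 152 CPM in Sen 1, 2 and 3 in mRNA, and 235, 139.5 and 126 CPM in Pro 1, 2 and 3 and 153, 222 and 127 CPM in Sen 1, 2 and 3 in RPF. Its states overlapped in both layers.

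Several of these genes are abundant in muscle, and most of the smooth muscle and muscle markers listed rose as well, though HSPB6 did not pass. Of 8 such markers, 6 rose and 1 fell in mRNA and 6 rose in RPF. Over all genes tested, 36.6% were called higher in mRNA and 27.6% in RPF. MYH11 fell in mRNA (log2 fold change of -0.78) and did not pass in RPF, and DES passed in neither layer. TAGLN was the largest part of the mRNA sum, at 2112 CPM in Pro and 3687 CPM in Sen. Their summed mRNA ran from 3091 to 3627 CPM in Pro and from 5349 to 5469 CPM in Sen, and none of the 8 was at 0. Their part in the rise of the small heat shock proteins was not tested. In bulk lysates fewer cells of a type and less RNA per cell cannot be told apart.

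**Figure D3:**
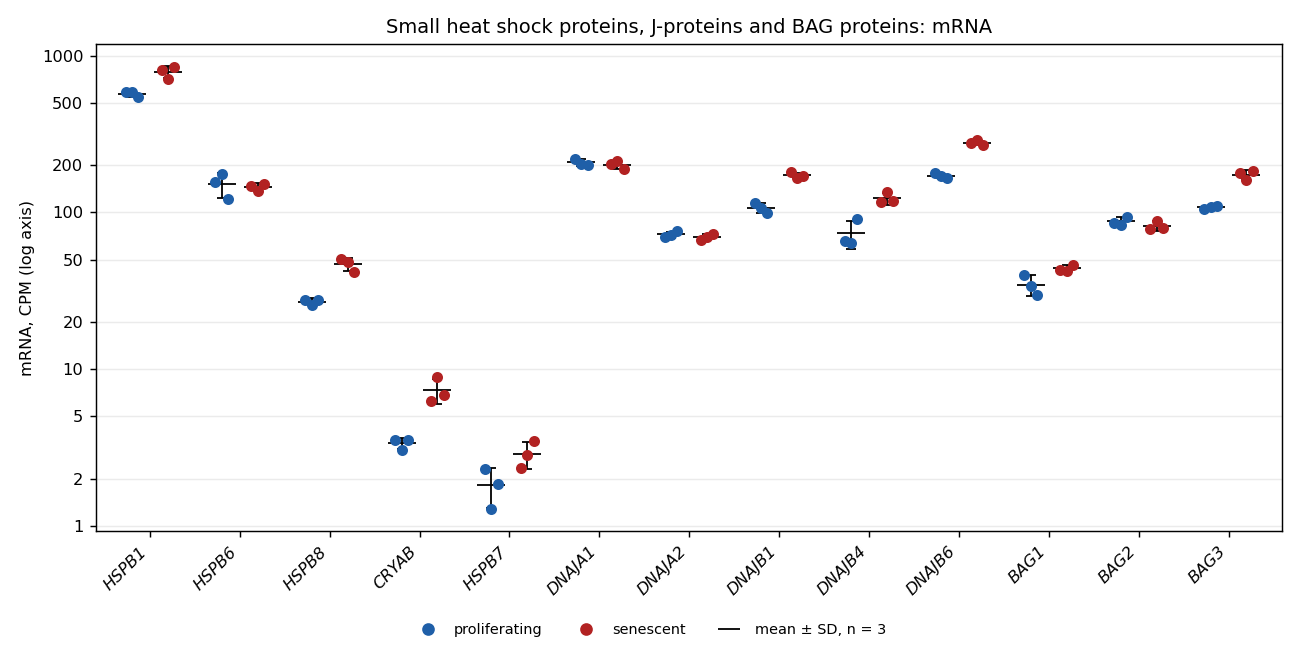
mRNA levels in CPM (log axis) of the small heat shock proteins, J-proteins and BAG proteins in each RNA-seq library, proliferating in blue and senescent in red, with bars of mean ± SD, n = 3. The Sen points lie above the Pro points for HSPB1, HSPB7, HSPB8, CRYAB, DNAJB1, DNAJB4, DNAJB6, BAG1 and BAG3.

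HSP90 and its co-chaperones were mostly lower, with 6 of 9 mRNAs falling and 1 rising, where 37% of all mRNAs tested were called lower. Both cytosolic HSP90 genes fell. HSP90AA1, the inducible form, went from 1163 ± 16.6 to 1002 ± 52.7 CPM of mRNA (-0.21, SE 0.07), and HSP90AB1, the constitutive form, from 926 ± 26.1 to 706 ± 4.17 CPM (-0.39, SE 0.07). Their RPF changes were -0.47 (SE 0.18) and -0.33 (SE 0.17), both called. Both calls were lost without Pro 2 or Pro 3, and that of HSP90AB1 also without Sen 1 or Sen 2 and with DESeq2, with adjusted p-values of up to 0.422. STIP1, which links HSP70 to HSP90, and FKBP4, a receptor co-chaperone, fell in mRNA by 0.37 and 0.24 on the log2 scale and did not pass in RPF. AHSA1, which speeds the ATPase of HSP90, passed in neither layer.

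FKBP5, a receptor co-chaperone whose gene is switched on by the glucocorticoid receptor, had the largest decrease of the 46 genes in both layers. Its mRNA was 37.6, 35.9 and 36.8 CPM in Pro 1, 2 and 3 and 8.61, 7.62 and 7.58 CPM in Sen 1, 2 and 3, with a log2 fold change of -2.22 (SE 0.10, adjusted p = 5.69e-14 by edgeR). Its footprints were 67.1, 46 and 28.9 CPM in Pro 1, 2 and 3 and 9.76, 0 and 9.46 CPM in Sen 1, 2 and 3, from 4, 32 and 50 counts for Pro 1, 2 and 3, against 15, 0 and 5 for Sen 1, 2 and 3. The 0 in Sen 2 allows up to 3 counts, or 51.3 CPM at that depth, which is above the level in Pro 2. The RPF change was -1.92 (SE 0.38), and TE did not pass. PTGES3, the co-chaperone p23, fell by 0.62 (SE 0.08) in mRNA and by 1.16 (SE 0.17) in RPF on the log2 scale. Its RPF were at 351 ± 71.4 and 161 ± 21.5 CPM without overlap, and 79.9% of its CDS windows occur in another annotated gene.

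CDC37, which loads kinases onto HSP90, was the HSP90 co-chaperone that rose. Its mRNA was 294, 304 and 288 CPM in Pro 1, 2 and 3 and 367, 359.8 and 379 CPM in Sen 1, 2 and 3, with a log2 fold change of 0.32 (SE 0.07, adjusted p = 0.000318 by edgeR). CDC37 footprints were 453, 250.2 and 282 CPM in Pro 1, 2 and 3 and 571, 359 and 541 CPM in Sen 1, 2 and 3, where the shallow Pro 1 stood above the shallow Sen 2. The RPF change was 0.91 (SE 0.17, adjusted p = 6.29e-06 by edgeR). TE was 0.65, -0.28 and -0.03 for lysates Pro 1, 2 and 3, against 0.64, 0.03 and 0.52 for Sen 1, 2 and 3, so the states overlapped, and the fit, in which deep libraries weigh more, gave a log2 fold change of 0.62 (SE 0.17, adjusted p = 0.0247 by edgeR). That TE call was lost without Pro 2, Pro 3, Sen 1 or Sen 3, with adjusted p-values of up to 0.576. CHORDC1, an HSP90 partner that heat induces, did not pass in mRNA and was called lower in RPF (-0.58, SE 0.28). That call was lost under 6 of 14 alternatives, among them DESeq2 and leaving out Pro 2, Pro 3, Sen 1 or Sen 3, with adjusted p-values of up to 0.662.

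All 8 TRiC subunits fell in mRNA, and 6 of 8 fell in footprints. Over all genes tested, 37% were called lower in mRNA and 26.6% in RPF. mRNA fold changes ran from -0.57 for CCT5 to -0.21 for CCT8, and no subunit overlapped between the states, as in 67.8% of all mRNAs tested. The summed TRiC mRNA was 2104 ± 42.1 CPM in Pro and 1627 ± 81.9 CPM in Sen, and the summed RPF 3742 ± 602 and 3001 ± 220.1 CPM. CCT5 mRNA was 339, 311 and 320.4 CPM in Pro 1, 2 and 3 and 227, 226 and 200.2 CPM in Sen 1, 2 and 3, and CCT5 footprints were 386, 617 and 642 CPM in Pro 1, 2 and 3 and 408, 462 and 475 CPM in Sen 1, 2 and 3, where Pro 1 was the lowest of all 6. CCT8 mRNA was 162, 169 and 165 CPM in Pro 1, 2 and 3 and 139, 157 and 134 CPM in Sen 1, 2 and 3, and its footprints were 285, 319 and 326 CPM in Pro 1, 2 and 3 and 234, 256 and 246 CPM in Sen 1, 2 and 3, without overlap. CCT6A had the largest RPF decrease among the subunits, with footprints of 369, 365 and 358 CPM in Pro 1, 2 and 3 and 208, 188 and 235 CPM in Sen 1, 2 and 3 and a log2 fold change of -0.74 (SE 0.16, adjusted p = 0.000132 by edgeR). Its mRNA was 225, 205 and 221 CPM in Pro 1, 2 and 3 and 152, 159 and 152 CPM in Sen 1, 2 and 3. RPF of CCT3 and CCT7 did not pass, with log2 fold changes of -0.06 and -0.17. The RPF calls of CCT2 and CCT6A held under each alternative, whereas those of TCP1, CCT4, CCT5 and CCT8 were lost under 7, 4, 5 and 5 of 15. Each of these 4 was lost with DESeq2 and without Pro 3 or Sen 1, and those of TCP1, CCT5 and CCT8 also without Pro 2, with TCP1 lost without Sen 2 as well, at adjusted p-values of up to 0.661. None of the 8 subunits passed for TE, whose changes lay between -0.20 and 0.25.

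Since the ring holds 1 copy of each subunit, the subunits were also compared with each other per kb of CDS. In mRNA (CDS reads), the highest subunit stood from 1.96 to 2.16 times above the lowest in the 6 libraries. In RPF the ratio ran from 1.96 to 2.93 in Pro and from 2.48 to 2.80 in Sen. CCT6A was the lowest subunit in RPF in all 3 Sen libraries, and in Pro the lowest was CCT8 or, in shallow Pro 1, TCP1. The share of CDS windows that occur in another annotated gene ran from 0% for CCT2 and CCT3 to 40.0% for TCP1. It was 33.3% for CCT6A and 34.7% for CCT8, and its part in these levels was not tested.

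The mitochondrial chaperones all fell in mRNA, where 37% of all mRNAs tested were called lower. HSPD1, which encodes HSP60, and HSPE1, its HSP10 lid, are neighbours on opposite strands of chromosome 2 whose annotated spans overlap (chr2:198351308-198381461 and chr2:198364864-198368173, GRCh37 annotation). HSPD1 mRNA was 392, 396 and 401 CPM in Pro 1, 2 and 3 and 212, 235 and 207 CPM in Sen 1, 2 and 3, with a log2 fold change of -0.86 (SE 0.07, adjusted p = 6.81e-10 by edgeR). Its footprints were 704, 863 and 941 CPM in Pro 1, 2 and 3 and 391, 342 and 379 CPM in Sen 1, 2 and 3, with a log2 fold change of -1.19 (SE 0.17, adjusted p = 7.82e-09 by edgeR). Neither layer overlapped, and TE did not pass (-0.24, SE 0.16). HSPE1 mRNA was 62, 64.4 and 57 CPM in Pro 1, 2 and 3 and 48.1, 49.9 and 36.3 CPM in Sen 1, 2 and 3, and its footprints were 201, 132 and 136 CPM in Pro 1, 2 and 3 and 73.6, 85.5 and 54.9 CPM in Sen 1, 2 and 3, without overlap. The log2 fold changes of HSPE1 were -0.45 (SE 0.10) in mRNA and -1.01 (SE 0.19) in RPF. TE of HSPE1 was 1.76, 1.05 and 1.26 for lysates Pro 1, 2 and 3, against 0.62, 0.91 and 0.62 for Sen 1, 2 and 3, and the TE change was -0.54 (SE 0.21, adjusted p = 0.134 by edgeR). The call was lost without Pro 2, Pro 3, Sen 1 or Sen 3. The CDS windows of HSPD1 and HSPE1 recur in other annotated genes, most of all in the pseudogenes HSPD1P1 and HSPE1P2, for 71.9% and 97.5% of windows.

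HSPA9, the mitochondrial HSP70, went from 271 ± 2.62 to 184 ± 4.90 CPM of mRNA (-0.56, SE 0.07) and from 551 ± 99.2 to 397 ± 41.0 CPM of RPF (-0.62, SE 0.16). TRAP1, the mitochondrial HSP90, fell in mRNA by 0.54 (SE 0.07) on the log2 scale, and its RPF change of -0.25 (SE 0.19) did not pass. Summed over the 4 genes, mRNA was 815 ± 2.88 CPM in Pro and 507 ± 24.7 in Sen. The summed RPF were 1642 ± 195 and 918 ± 19.97 CPM.

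**Figure D4:**
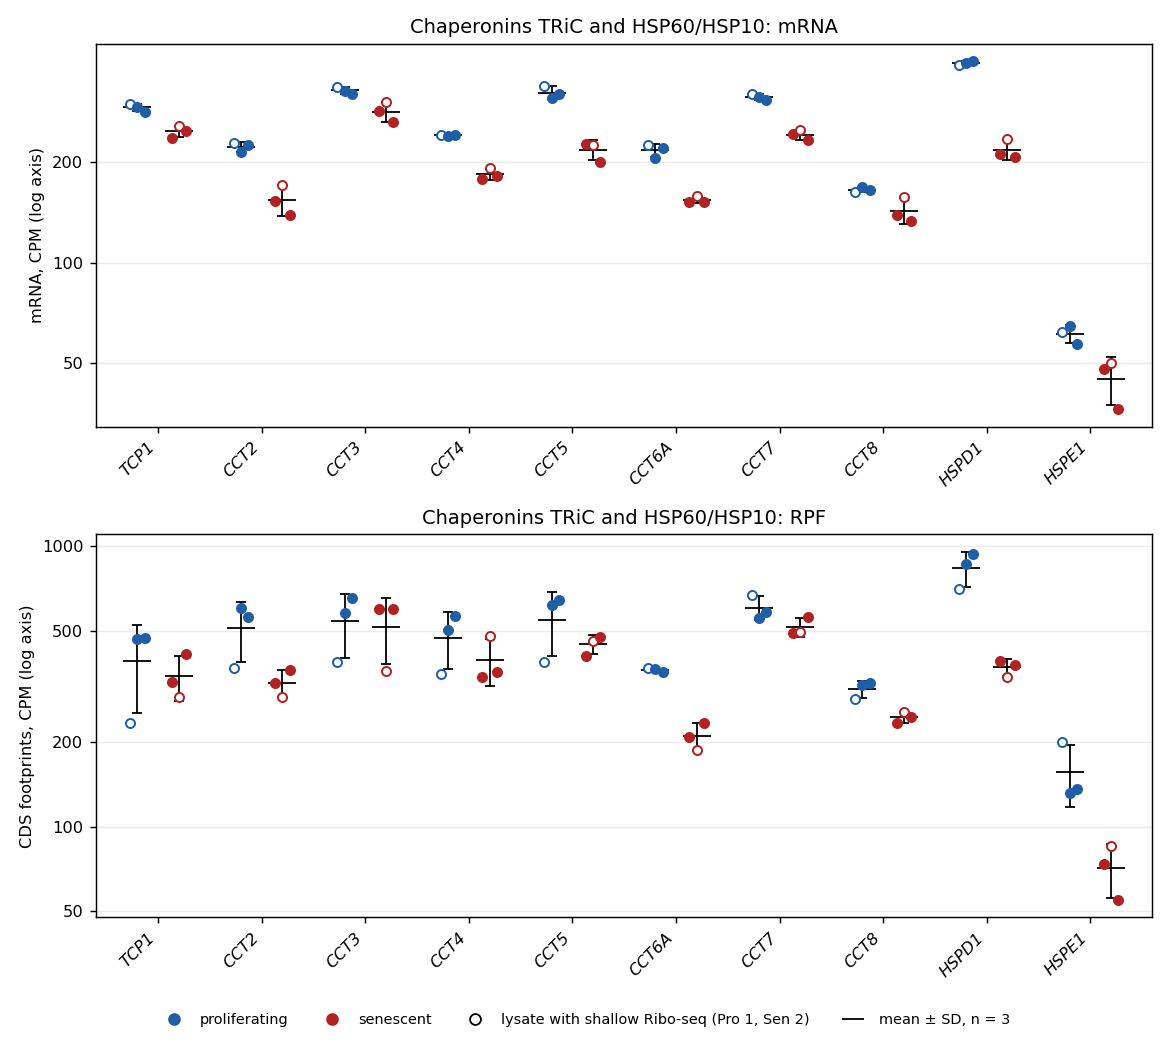
mRNA (upper panel) and CDS footprints (lower panel) in CPM on log axes for the 8 TRiC subunits and for HSPD1 and HSPE1 in each library, with open points for Pro 1 and Sen 2 and bars of mean ± SD, n = 3. All 10 genes are lower in Sen mRNA without overlap, and HSPD1, HSPE1, CCT2, CCT6A and CCT8 are lower in RPF without overlap.

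Prefoldin subunits did not move together. PFDN2, PFDN4 and VBP1 fell in mRNA, and PFDN1, PFDN5 and PFDN6 did not pass. In footprints PFDN1, PFDN2, PFDN4 and VBP1 fell and PFDN5 rose. Of all genes tested, 37% were called lower in mRNA, and 26.6% lower and 27.6% higher in RPF. The RPF call of PFDN2 was lost with DESeq2 and without Pro 2 or Sen 3 (adjusted p of up to 0.439), and those of PFDN4 and VBP1 with DESeq2. The calls of PFDN2 and VBP1 in mRNA, at -0.13 (SE 0.08) and -0.15 (SE 0.08), were the only mRNA calls among the 37 that some alternative ended. PFDN4 mRNA was 22.6, 28.8 and 29.5 CPM in Pro 1, 2 and 3 and 14.7, 19.8 and 13.9 CPM in Sen 1, 2 and 3, with a log2 fold change of -0.73 (SE 0.13, adjusted p = 3.02e-05 by edgeR). Its footprints were 16.8, 57.5 and 68.2 CPM in Pro 1, 2 and 3 and 26, 34.2 and 18.9 CPM in Sen 1, 2 and 3, with a single read in Pro 1, and the RPF change was -1.36 (SE 0.28).

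PFDN5, also known as a protein that binds MYC, had mRNA of 231, 203 and 199 CPM in Pro 1, 2 and 3 and 233, 287 and 186 CPM in Sen 1, 2 and 3, where the states overlapped. Its footprints were 151, 224 and 252 CPM in Pro 1, 2 and 3 and 383, 445 and 324 CPM in Sen 1, 2 and 3, without overlap and with a log2 fold change of 0.65 (SE 0.16, adjusted p = 0.000809 by edgeR). TE of PFDN5 was -0.54, 0.15 and 0.34 for lysates Pro 1, 2 and 3, against 0.72, 0.66 and 0.80 for Sen 1, 2 and 3, and the TE change was called (log2 fold change of 0.58 (SE 0.17, adjusted p = 0.034 by edgeR)). All of its CDS windows also occur in another gene of the annotation used here. PFDN1 went the other way. PFDN1 mRNA was 103, 97.2 and 82.9 CPM in Pro 1, 2 and 3 and 87.2, 98.2 and 78 CPM in Sen 1, 2 and 3, and its footprints were 168, 92 and 75.1 CPM in Pro 1, 2 and 3 and 56.6, 51.3 and 32.2 CPM in Sen 1, 2 and 3, without overlap. TE of PFDN1 was 0.78, -0.07 and -0.14 for lysates Pro 1, 2 and 3, against -0.62, -0.72 and -1.24 for Sen 1, 2 and 3, with a log2 fold change of -0.69 (SE 0.24, adjusted p = 0.0816 by edgeR). The TE calls of PFDN1 and PFDN5 were lost without 4 and 3 of the 6 single lysates. Per kb of CDS, PFDN5 footprints stood at 452 ± 113 CPM in Pro and 831 ± 131 CPM in Sen, and PFDN1 footprints at 305 ± 135 and 128 ± 35.1 CPM. The ratio of the highest to the lowest subunit in RPF was 16.1, 3.56 and 5.81 for Pro 1, 2 and 3, against 13.2, 11.3 and 14.9 for Sen 1, 2 and 3, and Pro 1 rests on a single VBP1 read.

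**Figure D5:**
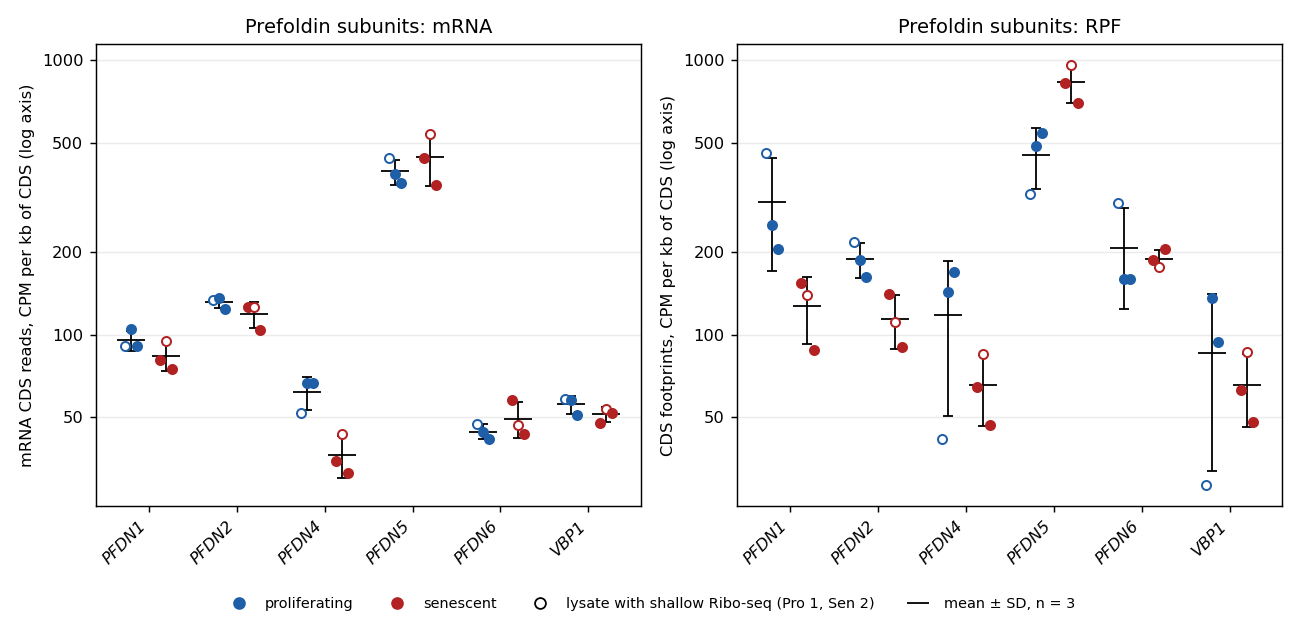
Levels of the 6 prefoldin subunits in CPM per kb of CDS (log axes) from RNA-seq CDS reads (left) and from CDS footprints (right), with open points for Pro 1 and Sen 2 and bars of mean ± SD, n = 3. PFDN5 stands above the other subunits in mRNA and is higher in Sen RPF, whereas PFDN1 and PFDN2 are lower in Sen RPF.

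Footprints per kb of CDS were ranked to see which chaperones dominated. The ranks depend on how shared reads were placed. Of the CDS windows, 57.9% of HSPA8, 32.1% of HSPB1, 62.9% of HSP90AA1, 54.9% of HSP90AB1 and 100% of PFDN5 occur in another annotated gene. In Pro, HSPA8 (1507 ± 189 CPM per kb) and HSPB1 (1503 ± 76.3) were highest, and these 2 did not differ beyond their spread. HSP90AA1 (964 ± 195) and HSP90AB1 (861 ± 76.9) followed, also within their spread. In Sen, HSPB1 (1942 ± 672) and HSPA8 (1753 ± 559.9) were again highest and PFDN5 (831 ± 131) was the third, within the spread of HSP90AA1 (696 ± 118) and HSP90AB1 (671 ± 134). HSPD1 moved from rank 7 to rank 16 and HSPE1 from rank 6 to rank 15 of 46. HSPA1A and HSPA1B were at ranks 38 and 37 in Pro (52.4 ± 3.79 and 52.6 ± 0.489 CPM per kb).

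Other genes of the folding pathways, from a list of 59 that the members leave out, were counted in the same way. Of 55 with enough mRNA reads, 22 fell and 10 rose, with a median log2 fold change of -0.10, where 37% of all mRNAs tested were lower and 36.6% higher. Of 48 with enough footprints, 13 fell and 7 rose, where 26.6% of all genes were lower and 27.6% higher. DESeq2 called 0 of them lower and 1 higher, against 15.5% of all genes called. Where 6.8% of all genes were called higher in TE and 3.57% lower, TE rose for 2 of 48 and fell for 2. Among those that rose was HSPA2, the testis-enriched HSP70, with a TE change of 1.03, where mRNA fell by 0.85 on the log2 scale. HSPA6, an HSP70 gene that is nearly silent without stress, stood at 0.2003 CPM of mRNA in Pro and 0.191 CPM in Sen, too few reads for a test. These genes were named after their values were seen.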

How the data were processed

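Ribo-seq and RNA-seq libraries of 6 IMR90 lysates (12 libraries in 4 groups of 3) were grouped and numbered by their labels. Of each lysate, the study digested a part with RNase, isolated fragments of 28 to 32 nt and kept the rest for poly(A)-enriched RNA-seq. The deposited tables list for every gene symbol how many reads the authors placed in its 5′ UTR, CDS, 3′ UTR and non-coding classes. These deposited values were taken to be estimated counts without depth scaling, since most are whole and the rest are simple fractions, and they were rounded to whole numbers after summing regions (0.5 to the even number). Plain counts had been planned for, and the same count test was kept. The submitters' processing notes name cutadapt 1.18, Bowtie 1.0.1, SAMtools 1.8 and DESeq2 1.22.2. The genome build, annotation, strand rule and treatment of reads with several placements are not given in the sources used here, and reads shared by near-identical genes may have been split.

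RNA-seq reads of the CDS and both UTRs were summed as mRNA, and RPF were CDS reads in Ribo-seq. Changes were tested by quasi-likelihood in edgeR 4.0.16 (R 4.3.3) after filterByExpr, with TMM factors within library type. The SE came from the coefficient and its statistic, and 95% intervals from the SE and the degrees of freedom of that fit. These degrees were 21.5 for mRNA, 78.5 for RPF and 74.8 for TE, most of them borrowed from the spread over all genes. The SE, intervals and p-values thus do not rest on the spread of a gene's own 3 replicates alone, which the SD gives. The mRNA and RPF tests used 6 libraries each. The TE test used all 12, with the lysate as block, and TE change as its interaction between library type and state. Tests were two-sided, with Benjamini-Hochberg adjustment over all genes tested and a threshold of 0.15, the rate in the study's methods. TE of a lysate was computed with 0.5 added to each count. The pairing of Ribo-seq with RNA-seq rests on the protocol, since residuals of such pairs correlated only from -0.05 to 0.07. Residuals of equal replicate numbers in Pro and Sen correlated from -0.07 to 0.09. This cannot exclude a pairing of the states by number, since libraries of the same lysate correlated no better. The labels call the replicas independent. DESeq2 1.42.0, other scaling, filters and left-out libraries were tried as alternatives. The tests were also run on simulated counts of known change, drawn with a fixed spread for each library type and no effect of the lysate. That run cannot show whether single RPF or TE calls in the real libraries hold. A floor of 3 counts was used for a level of 0, and it covers counting error only, as PCR copies of a molecule are not independent.

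Per-library values are given for the members with the highest and lowest mRNA change and the largest RPF change of each role group, for every member called for TE, and for HSPA1A, HSPA1B and HSF1. The members, classes and lists were chosen with earlier results of these data known. Coordinates and CDS windows of 28 bases came from the GRCh37 GENCODE annotation, and promoters from RefSeq (GRCh38.p14). The values of 1 other pathway gene are not reported here.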

Additional observations from a re-analysis of the deposited data

How the results depend on the processing

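Of the mRNA calls of 37 members, 35 held under every alternative that kept the gene, and no called member changed direction in any layer. Of 30 RPF calls, 11 held throughout (CDC37, PTGES3, FKBP5, HSPB8, CCT2, CCT6A, PFDN1, PFDN5, HSPA9, HSPD1 and HSPE1) and 14 held apart from DESeq2. Of 8 TE calls, none held throughout and that of HSPA1A held apart from DESeq2. With DESeq2, RPF calls numbered 1164 genes, with 3 members higher and 10 lower, and TE calls 28 genes, with 0 and 0 members. Requiring at least 10 counts in every library tests fewer genes. It gave 605 RPF calls, with 3 members higher and 14 lower, and 266 TE calls, with 3 members higher and 0 lower. Keeping every gene with at least 1 read gave 430 TE calls, with 3 members higher and 1 lower. Without Pro 1 and Sen 2 together, TE calls numbered 1206, with 6 members higher and 5 lower. With the replicate number as a block, RPF calls numbered 2327, with 4 members higher and 13 lower. Whether the numbers pair the states is not known. Without the lysate block, TE calls numbered 1339, with 6 members higher and 4 lower. Beyond the settings that test fewer genes or fewer libraries, the cause was not tested. Leaving out 1 library or lysate at a time gave 2689 to 4553 RPF calls, with 5 to 11 members higher and 12 to 23 lower, and 151 to 1103 TE calls, with 2 to 6 members higher and 0 to 8 lower. Library totals in place of TMM factors moved the median over all genes to -0.11 in mRNA and -0.14 in RPF. Rounding 0.5 of a read up was added after seeing the data. At 54323 and 54587 CDS reads in Pro 1 and Sen 2, a footprint level below 50.3 or 51.3 CPM is not resolved there.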
